A study of Mus musculus with 8 samples.

Results

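The genes described are 6 markers of β-cell maturity, Ucn3, Wnt4, Slc2a2, Ppp1r1a, Prss53 and Esrrg, chosen by name from the 24421 genes counted in every sample. Islet cells of male C57BL/6J mice aged 8 weeks were counted in 4 control samples, whose mice had no operation, and in 4 PPTx samples, whose mice had lost 50% of the pancreas by partial pancreatectomy (PPTx) 2 days before their islets were isolated. Each sample pooled the islets of 1 to 3 mice, so the individual mouse cannot be followed. The splenic side was the part removed, so the region from which the remaining islets came and the operation cannot be told apart. Droplet capture is named in the labels as ddSEQ with a Chromium 3′ kit and in the study's methods as ddSEQ with its SureCell kit, and both count unique molecular identifiers (UMIs), short tags that mark each captured mRNA molecule once.

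Adult β-cells acquire their full response to glucose only after birth, and the genes followed here are among those that the mature cell carries. Ucn3 encodes urocortin 3, a peptide released with insulin that acts on the Crhr2 receptor of δ-cells and raises their somatostatin release, and Wnt4 encodes a secreted ligand of the Wnt family. Slc2a2 encodes GLUT2, the transporter through which glucose enters the rodent β-cell, and Ppp1r1a encodes an inhibitor of protein phosphatase 1 that is switched on by protein kinase A. Prss53 encodes a serine protease, and Esrrg the orphan nuclear receptor ERRγ, a transcription factor of mitochondrial genes.

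Of 1240 deposited cells, 8 fell outside the limits on genes and UMIs, and the other 1232 (520 control, 712 PPTx) held at least 2005 UMIs each. Cells were sorted into types from their hormone UMIs, which include no marker of maturity: a β-cell had at least 20% of its UMIs from Ins1 and Ins2 and less than 5% from each of Gcg, Sst and Ppy, and an α-, δ- or PP-cell had at least 5% from Gcg, Sst or Ppy alone. This gave 923 β-cells (368 control and 555 PPTx), 98 α-cells (87 and 11), 125 PP-cells (30 and 95) and 8 δ-cells. The 62 cells with 2 abundant hormones, where doublets would fall, and 16 cells with none were left out of the comparisons. Only 4 cells had an insulin share between 15% and 25%, and 10 had another hormone between 4% and 6%. The β-cells of a sample held between 196203 and 1268890 UMIs in all, and levels are given as CPM, the UMIs of a gene scaled to 1000000 UMIs of the summed cells, with intervals that cover counting error only. The α-cell share was 14.6% ± 7.14 in control against 1.64% ± 0.974 in PPTx samples and the PP-cell share 5.74% ± 3.02 against 13.0% ± 2.46 (SD over 4 samples each), neither of which overlapped between the groups (exact permutation test, two-sided, p = 0.0286 for each, the smallest that 4 against 4 samples allow).

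The hormone classes were checked on genes that did not define them. Pooled β-cells held 49107 CPM of Iapp, the amyloid peptide secreted with insulin, and 2020 CPM of G6pc2, a glucose-6-phosphatase of β-cells, whereas the β-cell transcription factors Mafa and Pdx1 were nearly absent from these 3′ counts, at 0.320 and 6.72 CPM. α-cells held 200.1 CPM of Irx2 and 157 CPM of Irx1, both transcription factors of α-cells, against 0.640 and 0.320 CPM in β-cells. PP-cells held 113383 CPM of Pyy, the peptide YY made with pancreatic polypeptide, and the 8 δ-cells held 170 CPM of Hhex, a transcription factor of δ-cells. Pyy was also at 45429 CPM in δ-cells. The PP-cell marker Etv1 was higher in α-cells (212 CPM) than in PP-cells (162 CPM). Id4, another PP-cell marker, was at 42.6 CPM in δ-cells and 1.41 CPM in PP-cells. Ghsr, a δ-cell marker, was at 0 CPM in δ-cells. Insulin itself still took a median of 0.791% of the UMIs of α-cells, 0.924% of PP-cells and 1.48% of δ-cells, against 59.7% in β-cells, and the marker UMIs outside β-cells are set against this share below.

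Because the markers differed in how far they followed the β-cell, the 250 bases before the transcription start are shown for Ucn3 and Slc2a2, which did follow it, and for Wnt4, which did not. They are RefSeq sequences of GRCm38.p6, written 5′ to 3′ on the strand of the gene. The Ucn3 gene spans chr13:3940688-3945349 and its window chr13:3945350-3945599 on the minus strand. The Slc2a2 gene spans chr3:28697903-28728361 and its window chr3:28697653-28697902 on the plus strand. The Wnt4 gene spans chr4:137277635-137299501 and its window chr4:137277385-137277634 on the plus strand. Capitals mark every match, on either strand, to CAGATG (an E-box bound by NEUROD1), TGCTGA (the core bound by large MAF factors), TAAT (a homeodomain core), GTTAAT (one side of an HNF1 site, which contains TAAT) and TNAAGGTCA (the site of the estrogen-related receptors).
Ucn3: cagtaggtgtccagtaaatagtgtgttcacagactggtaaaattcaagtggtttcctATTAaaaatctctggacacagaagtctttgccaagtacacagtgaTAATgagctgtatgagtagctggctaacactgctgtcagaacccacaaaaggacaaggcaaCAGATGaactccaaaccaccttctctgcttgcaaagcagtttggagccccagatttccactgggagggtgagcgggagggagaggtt
Slc2a2: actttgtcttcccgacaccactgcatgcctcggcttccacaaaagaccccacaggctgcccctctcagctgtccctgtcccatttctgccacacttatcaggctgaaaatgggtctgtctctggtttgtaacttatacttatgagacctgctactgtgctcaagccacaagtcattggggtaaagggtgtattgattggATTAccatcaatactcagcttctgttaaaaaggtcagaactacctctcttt
Wnt4: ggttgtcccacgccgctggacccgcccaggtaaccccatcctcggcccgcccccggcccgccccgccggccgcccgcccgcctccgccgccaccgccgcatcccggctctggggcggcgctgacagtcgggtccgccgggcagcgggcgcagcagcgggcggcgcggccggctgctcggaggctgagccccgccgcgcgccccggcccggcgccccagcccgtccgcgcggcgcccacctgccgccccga
The Ucn3 window held CAGATG at bases -87 to -82 from the start and TAAT at -193 to -190 on the opposite strand and at -148 to -145. The Slc2a2 window held TAAT at -51 to -48 on the opposite strand, and the Wnt4 window held no match. Over 32807 windows of the same length, 14.5% held CAGATG, 16.1% TGCTGA, 54.9% TAAT, 6.44% GTTAAT and 1.14% TNAAGGTCA, so none of these matches is rare. Base composition set Wnt4 apart, with 85.2% G and C and 44 CpG pairs, a G and C content that 99.9% of all windows did not exceed, whereas Ucn3 had 46.4% and 1 pair and Slc2a2 47.2% and 2 pairs, and the median window had 52.4% and 6 pairs. The window of Prss53, whose gene spans chr7:127885444-127892965, lies inside the gene itself and is not printed, and Esrrg, at chr1:187608510-188214885, has 4 annotated starts. Ppp1r1a lies at chr15:103530279-103538027.

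The first question was in which islet cells each marker was found. Ucn3, Slc2a2, Ppp1r1a and Prss53 were carried by β-cells and were lower in α-cells and PP-cells, with pooled ratios of 12.0 and above, whereas Wnt4 was at least as high in α-cells and PP-cells as in β-cells, and Esrrg was hardly detected in any type. The plot of the 6 genes by cell type shows this for each sample. α-cells were numerous enough (at least 5 in a sample) only in the 4 control samples, PP-cells in 7 samples, and δ-cells in none.

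**Figure D1:**
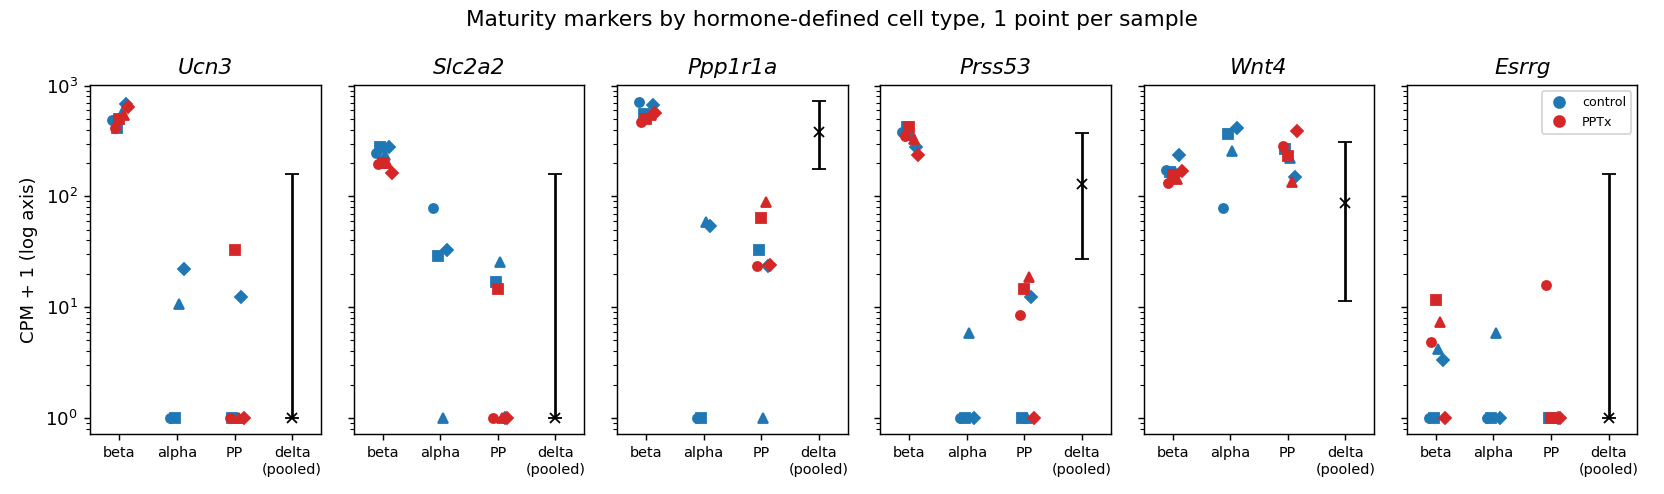
Level of each maturity marker (CPM + 1, log axis) in β-, α- and PP-cells, 1 point per sample with at least 5 cells of the type, blue for control and red for PPTx, with the marker shape giving the replicate as in the plot of β-cells by group; crosses are the 8 δ-cells pooled, with 95% Poisson intervals. Ucn3, Slc2a2, Ppp1r1a and Prss53 are separated between β-cells and the α- and PP-cells, Wnt4 overlaps across types, and Esrrg lies near 0 throughout.

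Ucn3 in β-cells had a lowest value of 410, a median of 521 and a highest of 676 CPM over the 8 samples. In α-cells of control samples 1 to 4 it was 0, 0, 9.66 and 21.0 CPM, on 4 UMIs in all, and in PP-cells its lowest, median and highest values were 0, 0 and 31.7 CPM. No α- or PP-cell sample came near the lowest β-cell sample, and α- and PP-cells overlapped each other. Summed over the control samples Ucn3 was 49.7 times higher in β- than in α-cells (95% interval 19.4 to 183), and over 7 samples 47.4 times higher than in PP-cells (24.0 to 110). Of the 8 UMIs in PP-cells 7 came from PPTx replicate 2, and without that sample the fitted log2 difference between β- and PP-cells rose from 5.59 to 7.78. In the 8 δ-cells no Ucn3 UMI was counted among 23465 UMIs, which puts the level in β-cells at least 4.11-fold higher when 3 counts over all δ-cells are taken as the limit.

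Wnt4, the other secreted product, had a different distribution. It was 132, 166 and 234 CPM (lowest, median and highest of 8 samples) in β-cells, 78.1, 362, 256 and 410 CPM in α-cells of control samples 1 to 4, and 133, 231 and 389 CPM (lowest, median and highest of 7) in PP-cells. The 3 types overlapped, and the lowest α-cell value came from 1 UMI in 5 cells. Counted over pooled cells, the β-cell level was 0.620 times that of α-cells (0.502 to 0.771) and 0.729 times that of PP-cells (0.616 to 0.866). δ-cells held 2 UMIs of Wnt4, both in the same cell.

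Slc2a2 in β-cells ranged from 162 to 276 CPM with a median of 217 CPM. α-cells of control samples 1 to 4 had 78.1, 27.8, 0 and 31.5 CPM, from 5 UMIs in 5 cells, and PP-cells had a lowest and median value of 0 and a highest of 24.6 CPM, also from 5 UMIs. Every β-cell sample lay above every α- and PP-cell sample, while α- and PP-cells overlapped. Pooled levels were 17.8 times (7.61 to 55.1) those of α-cells and 30.9 times (13.2 to 95.4) those of PP-cells. The fit depended on which control samples supplied the α-cells, with a log2 difference of 4.58 that became 3.49 without control replicate 3 and 5.34 without control replicate 4. No Slc2a2 UMI was counted in δ-cells, so β-cells were at least 1.80-fold higher with the same limit of 3 counts.

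Ppp1r1a in β-cells ranged from 467 to 708 CPM with a median of 553 CPM. It was 0, 0, 58.0 and 52.5 CPM in α-cells of control samples 1 to 4, and 0, 22.9 and 88.5 CPM (lowest, median and highest) in PP-cells. β-cells lay above the α- and PP-cells in each sample, by 12.4 times (7.72 to 21.3) over α-cells and 12.0 times (8.51 to 17.6) over PP-cells. δ-cells were nearer to β-cells for this gene, with 9 UMIs in 5 of the 8 cells, a pooled level of 384 CPM (175 to 728) and a ratio of β- to δ-cells of 1.44 (0.757 to 3.15). By sample, Ppp1r1a in δ-cells was 391 CPM in control replicate 1 and 350 CPM in control replicate 4, on 2 and 3 UMIs in 2 cells each, and its other 4 UMIs were in the 1 δ-cell of PPTx replicate 1, which made 1448 CPM there, above the 467 CPM of the β-cells of that sample. A fit that took in those 2 control sums, added after the cells were counted, called 3 of 5 markers higher in β-cells than in δ-cells, where 1.5% of all genes tested were. Ppp1r1a was one of them (log2 difference 2.48, SE 0.62, adjusted p = 0.00754, edgeR), but the CPM of the same 2 samples give log2 ratios of 0.86 and 0.94, so the fitted size disagrees with the counts and the call is not relied on. Ucn3 (adjusted p = 1.13e-05, edgeR) and Slc2a2 (adjusted p = 0.00627, edgeR) were the others, both against 0 UMIs in δ-cells, so these calls are not relied on either. Prss53 (adjusted p = 0.125, edgeR) and Wnt4 (adjusted p = 0.319, edgeR) were not called. The median log2 difference over the 2933 genes tested in that fit was 0.82, and no other scaling was run for it.

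Prss53 in β-cells had a lowest, median and highest value of 237, 354 and 425 CPM. A single UMI, in control replicate 3, made up its whole count in the 87 control α-cells (4.83 CPM in that sample and 0 in the other 3), while all 98 α-cells, PPTx samples included, held 3 UMIs, or 7.23 CPM (1.49 to 21.1), and PP-cells had 0, 7.44 and 17.7 CPM. The ratio of β- to α-cells of 121 therefore has an interval of 21.6 to 4777, and that of β- to PP-cells is 35.0 (17.0 to 87.2). δ-cells held 3 UMIs, all in 1 cell. The 3′ end of Prss53 overlaps the neighbouring gene Zfp646 on chromosome 7, and how reads of the overlap were assigned is not given in the sources used here; Zfp646 itself was at 8.15 CPM in β-cells and the gene on the other side, Vkorc1, at 185 CPM.

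Esrrg was counted 28 times in 26 of the 923 β-cells, which is 4.48 CPM (2.97 to 6.47). One α-cell held 1 UMI and the PP-cells held 2 UMIs, both in PPTx replicate 1. At these counts no order of the types could be read, and Esrrg did not pass the filter on low counts in any fit.

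Each β-cell sum was then compared with the α- or PP-cell sum of the same sample in 1 model over all genes (edgeR's quasi-likelihood test, sample as a block, Benjamini-Hochberg adjusted over the 2597 genes tested). Of the 5 markers tested against α-cells, 4 were called higher and none lower, where 29.3% of all genes tested were called in either direction and 16.6% of all genes tested were called higher. The log2 difference was 6.11 (SE 0.39, adjusted p = 1.55e-52) for Ucn3, 4.58 (SE 0.42, adjusted p = 1.36e-25) for Slc2a2, 4.13 (SE 0.29, adjusted p = 1.29e-43) for Ppp1r1a and 7.24 (SE 0.53, adjusted p = 6.36e-40) for Prss53. Those p-values rest on counts of few cells, and DESeq2 gave adjusted p-values of 1.40e-07, 2.66e-09, 4.38e-11 and 2.80e-10 for the same genes, while the exact sign-flip test over 4 samples, two-sided, gave 0.125, the smallest that 4 samples allow, with β-cells higher in 4 of 4. Without control replicate 3, which supplied 45 of the α-cells, the difference of Ppp1r1a became 4.74 and that of Prss53 became 9.99, the latter against samples with no Prss53 UMI left. With cells typed by their leading hormone, the differences became 4.17 for Ucn3, 3.88 for Slc2a2, 4.11 for Ppp1r1a and 4.77 for Prss53. With insulin at least 30% and other hormones at least 10%, the Ucn3 and Prss53 differences became 4.62 and 6.06. Wnt4 was not called, at -0.27 (SE 0.22, adjusted p = 0.379). The median of the 5 markers was 4.58, against 0.07 over all genes tested.

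Against PP-cells the same 4 of 5 markers were called higher, where 35.3% of all genes tested were called in either direction and 19.6% of all genes tested were called higher. The log2 difference was 5.59 (SE 0.28, adjusted p = 1.71e-82) for Ucn3, 4.95 (SE 0.37, adjusted p = 8.98e-40) for Slc2a2, 3.67 (SE 0.21, adjusted p = 2.05e-63) for Ppp1r1a and 5.22 (SE 0.31, adjusted p = 3.16e-59) for Prss53. DESeq2's adjusted p-values were 1.86e-12, 8.00e-13, 2.94e-18 and 1.65e-16, and the exact sign-flip test, two-sided, gave 0.0156 for each, with β-cells higher in 7 of 7 samples. The Slc2a2 difference became 5.65 without PPTx replicate 2. Typing cells by their leading hormone gave 4.71 for Ucn3, 4.13 for Slc2a2, 3.02 for Ppp1r1a and 4.30 for Prss53. Wnt4 was lower in 5 of 7 samples and missed the threshold, at -0.37 (SE 0.17, adjusted p = 0.0771, exact p = 0.125). The median of the 5 markers was 4.95, against 0.04 over all genes tested.

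Whether Wnt4 is counted as lower in β-cells depended on the scale. With library totals and no TMM scaling, it was called lower in β- than in α-cells (-0.80, adjusted p = 0.00168) and PP-cells (-0.47, adjusted p = 0.0186), but this scaling also moved the median of all genes against α-cells to -0.46 and the split of calls from 432 higher and 328 lower to 211 higher and 778 lower. Relative to that median the Wnt4 difference was close to the value with TMM. Wnt4 was also called lower than in PP-cells with the hormone genes left out of the totals (-0.43, adjusted p = 0.0313), with insulin at least 30% and other hormones at least 10% (-0.44, adjusted p = 0.0235), with cells typed by their leading hormone (-0.45, adjusted p = 0.0169) and without control replicate 4 (-0.58, adjusted p = 0.0101). Over 19 other settings its difference lay between -0.80 and -0.01 against α-cells and between -0.58 and -0.03 against PP-cells. The values of -0.01 and -0.03 came with no filter on low counts, where the median of all genes was 0.32 against α-cells and 0.37 against PP-cells.

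Insulin UMIs outside β-cells give a yardstick for β-cell RNA that reached other cells, since free RNA or an attached β-cell brings marker and insulin UMIs in the ratio they have in the β-cells of that sample. The UMIs counted in each type were set against the number expected from its insulin UMIs at that ratio, over all cells of the type in the 8 samples. The plot of observed over expected UMIs gives the result for 5 markers.

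**Figure D2:**
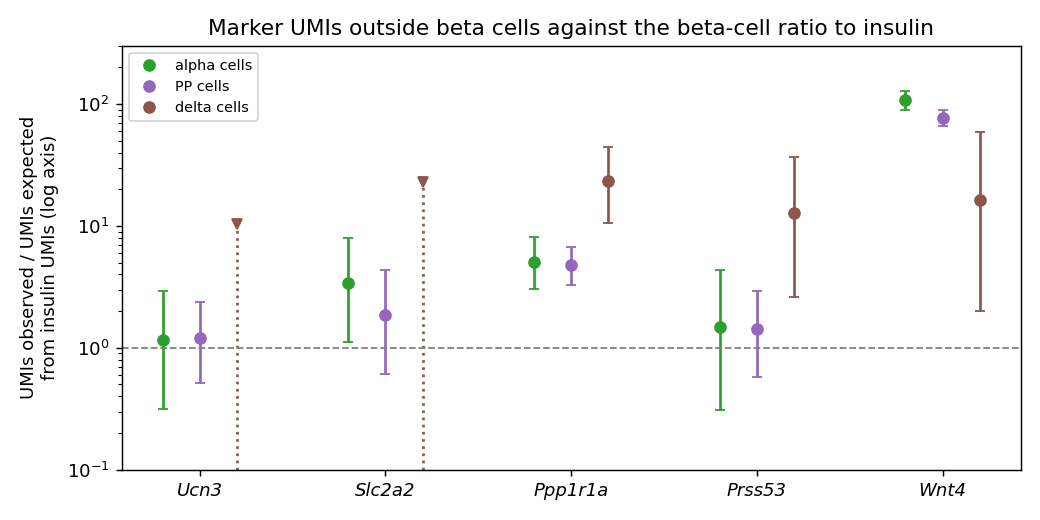
UMIs of each marker observed in α-, PP- and δ-cells divided by the UMIs expected from the insulin UMIs of those cells at the β-cell ratio of their sample (log axis), with 95% Poisson intervals; triangles with dotted lines are upper limits where no UMI was counted. Ucn3 and Prss53 lie near 1 in α- and PP-cells, Ppp1r1a lies near 5, and Wnt4 lies at 107 and 77.0.

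Ucn3 in α-cells came to 4 UMIs where 3.48 were expected, and in PP-cells to 8 where 6.68 were expected, ratios of 1.15 (0.313 to 2.94) and 1.20 (0.517 to 2.36). Prss53 came to 3 UMIs against 2.02 in α-cells and 7 against 4.90 in PP-cells, ratios of 1.49 (0.307 to 4.35) and 1.43 (0.574 to 2.94). For both genes these intervals included 1, and Prss53 in δ-cells, at 3 UMIs in 1 cell against 0.237 expected, had a ratio of 12.7 (2.61 to 37.0).

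Slc2a2 stood at 5 UMIs against 1.47 in α-cells, a ratio of 3.41 (1.11 to 7.96), and at 5 against 2.68 in PP-cells, a ratio of 1.87 (0.607 to 4.36). Ppp1r1a exceeded the expectation in both types, with 18 UMIs against 3.54 in α-cells (5.09, 3.02 to 8.04) and 32 against 6.71 in PP-cells (4.77, 3.26 to 6.73), and in the δ-cells with 9 against 0.387 (23.3, 10.6 to 44.2). Observed Ppp1r1a UMIs were above the expected number in 6 of 7 PP-cell samples and in 2 of 4 α-cell samples.

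Wnt4 in α-cells was 121 UMIs against 1.13 expected, a ratio of 107 (89.0 to 128), and in PP-cells 160 against 2.08, a ratio of 77.0 (65.5 to 89.9). It exceeded the expectation in 4 of 4 α-cell and 7 of 7 PP-cell samples (exact sign-flip p = 0.125 and p = 0.0156, two-sided, the smallest that 4 and 7 samples allow). That test adds 0.5 UMI to each count, which places samples with 0 UMIs above the expectation, so it is not given for the other markers. These ratios depend on insulin as the reference. Iapp averaged 3643 CPM beside 7146 CPM of Ins2 in PP-cells, and 48747 beside 509229 CPM in β-cells. In the pooled δ-cells Iapp, at 18964 CPM, was above Ins2, at 14958 CPM. The Iapp expectation in δ-cells is therefore far larger than that from insulin, for Prss53 3.39 against 0.237 UMIs. How much of the Iapp in δ-cells came from β-cells was not tested. With Iapp in place of insulin, Wnt4 in PP-cells was 16.3 times the expectation (13.9 to 19.0) and Ppp1r1a 0.969 times (0.663 to 1.37), with 32 UMIs against 33.0 expected, while Ucn3, Slc2a2 and Prss53 were below it, at 0.241 (0.104 to 0.476), 0.391 (0.127 to 0.912) and 0.289 (0.116 to 0.594). Ppp1r1a in α-cells was still above the Iapp expectation, at 3.32 times (1.97 to 5.25), and in δ-cells the interval included 1 (1.54, 0.705 to 2.93). The intervals also included 1 for Slc2a2 in α-cells (2.22, 0.720 to 5.17) and for Prss53 in δ-cells, with 3 UMIs against 3.39 expected (0.884, 0.182 to 2.58).

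Other genes that mark β-cell maturity were taken from a list, with Ins1 and Ins2, which define the classes, left out here. They gave 9 higher and 1 lower of 16 tested against α-cells, and 11 higher and 3 lower against PP-cells, with medians of 2.03 and 2.02. Over all genes tested, 16.6% were called higher against α-cells and 19.6% against PP-cells (29.3% and 35.3% in either direction). The amyloid gene Iapp was higher in β-cells by 5.86 and 4.69 on the log2 scale, the mitochondrial subunit Cox6a2 was higher by 6.07 and 5.03, the cation channel Trpm5 by 5.85 and 8.11, G6pc2 by 5.38 and 4.76, and the granule protein Sytl4 by 4.20 and 4.42. The transcription factor Isl1, used by all islet endocrine cells, was lower in β-cells, at -1.37 and -0.86, and against PP-cells Nkx2-2 and the potassium channel gene Kcnj11 were also lower, at -0.81 and -0.99. Among genes of immature or non-β identity, Pyy, Rbp4 and Cd81 were lower in β-cells than in α-cells (-4.49, -4.06 and -2.45) and than in PP-cells (-7.92, -3.00 and -2.76).

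Of 19 receptors, relatives and neighbours of the markers, 4 were tested between types and none was called against α-cells, where 29.3% of all genes tested were. Against PP-cells Ppp1cb, a catalytic subunit of the phosphatase that Ppp1r1a inhibits, was lower, at -0.49 (adjusted p = 0.0118). In β-cells no UMI was counted for Crhr2, Crh, Slc2a3 or Esrrb, and none for Crhr2, the receptor of urocortin 3, in the 8 δ-cells, where a limit of 3 counts corresponds to 128 CPM. The GLUT1 gene Slc2a1 was at 7.64 ± 3.65 CPM (SD, n = 8) and Esrra at 7.67 ± 4.01 CPM. Among the Wnt receptors Fzd3 was at 33.4 ± 10.2 CPM, Ryk at 30.9 ± 7.62 CPM, Lrp6 at 20.3 ± 6.30 CPM and Ror2 at 15.8 ± 6.24 CPM.

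Likeness of pattern was measured as Pearson's r of log2(CPM + 10) over the 19 sums of a sample and type, among 2597 genes, as a description without a p-value, since the sums share samples and types. Ucn3 was most like Ins2 (0.988), Sytl4 (0.984) and Ins1 (0.977), Slc2a2 like Hopx (0.932), Atp2a2 (0.914) and Fam151a (0.912), and Ppp1r1a like G6pc2 (0.967), Vps8 (0.958) and Iapp (0.948). Prss53 was most like Cox6a2 (0.992), Enho (0.990) and Ins1 (0.976). Wnt4 was most like Ank3 (0.892), Tox3 (0.865) and Adgrl1 (0.838), each of which averaged more CPM in α- and PP-cells than in β-cells. Between the markers, r was highest for Ucn3 with Prss53 (0.967), and Wnt4 had r between -0.45 and -0.30 with the other 4.

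Within the β-cells the markers were detected in a part of the cells, and this part depended on depth, so every cell was also thinned to 2000 UMIs. Ucn3 was found in 60.9% of thinned β-cells and in 85.7% unthinned. The exact binomial interval of the thinned share, 57.7% to 64.1%, treats the pooled cells as independent. By sample the thinned share ranged more widely, from 50.0% to 67.2%. Ppp1r1a was found in 62.4% and 88.8%, and Prss53 in 46.5% and 77.6%. Slc2a2 was found in 33.6% and 63.9%, Wnt4 in 24.9% and 56.8%, and Esrrg in 0.975% and 2.82%. As the background, thinned α- and PP-cells had a Ucn3 UMI in 3.06% and 3.20%, a Slc2a2 UMI in 2.04% and 0.800%, a Ppp1r1a UMI in 5.10% and 7.20%, and a Prss53 UMI in 1.02% and 2.40% of cells, where the median depths before thinning were 3867.5 and 5221 UMIs against 6136 in β-cells. Wnt4 was found in 48.0% of α-cells and 39.2% of PP-cells, above its share in β-cells.

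β-cells without a marker were the shallower cells. The 132 β-cells with no Ucn3 UMI had a median of 3991 UMIs, against 6683 in those with one, and the 333 without Slc2a2 had 4602 against 7354.5. Of the 923 thinned β-cells 51 held none of the 6 markers, 180 held 1, 290 held 2, 270 held 3, 114 held 4, 18 held 5 and 0 held all 6. At full depth 10 cells held none. The variance of the thinned counts over their mean, which is 1 for counting noise alone, had a median over samples of 1.26 for Ucn3, 1.26 for Ppp1r1a, 1.27 for Wnt4, 1.12 for Slc2a2 and 1.05 for Prss53. Pairs of markers were weakly related across thinned β-cells of a sample, with median r from -0.05 for Ppp1r1a with Prss53 to 0.11 for Ppp1r1a with Wnt4, too weak in counts this sparse to be read as a relation.

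The second question was whether the markers differed in β-cells that carried transcripts of replication. β-cells with at least 1 UMI of Top2a or Cdk1, which encode the topoisomerase and the kinase of dividing cells, numbered 45, with a mean share of all β-cells of 2.47% ± 1.05 in control against 6.53% ± 2.15 in PPTx samples (SD over 4 samples each, exact p = 0.0286). In the 6 samples with at least 3 such cells (control replicates 3 and 4 and the 4 PPTx samples), Ppp1r1a and Ucn3 were lower in these cells than in the β-cells without such UMIs, whereas Slc2a2 did not move in one direction. The plot of paired levels shows each sample.

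**Figure D3:**
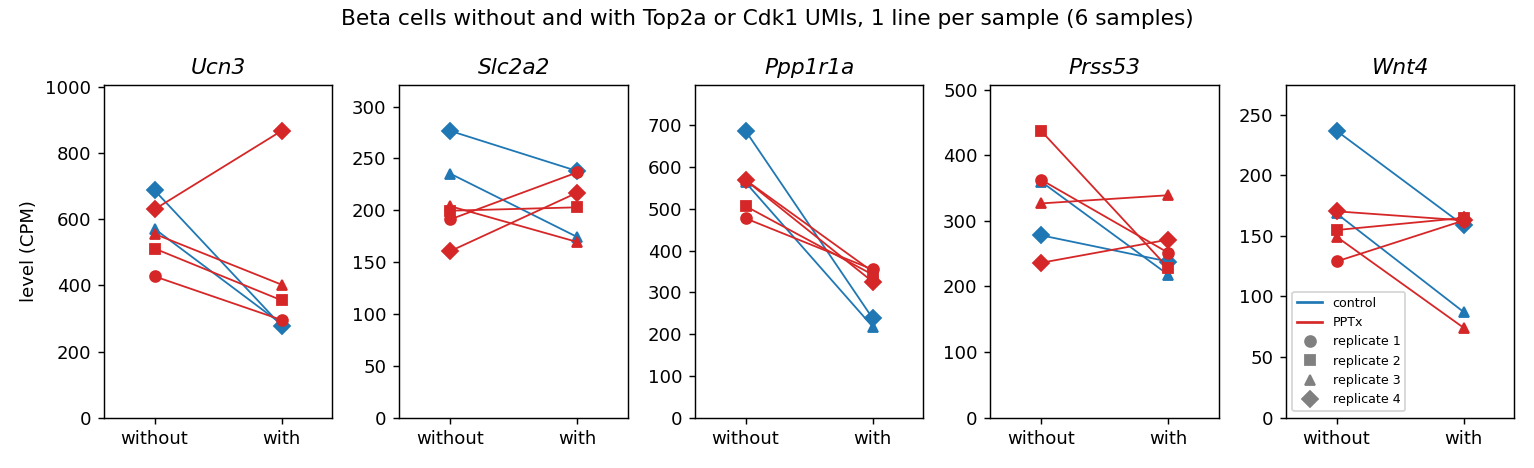
Levels (CPM) of 5 maturity markers in β-cells without and with UMIs of Top2a or Cdk1, 1 line per sample (blue control, red PPTx, 6 samples). Ppp1r1a falls in 6 of 6 samples and Ucn3 in 5 of 6, with PPTx replicate 4 rising to 868, while Slc2a2 lines cross.

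Ppp1r1a in cells with Top2a or Cdk1 UMIs had a lowest, median and highest value of 218, 334 and 355 CPM over the 6 samples, against 477, 566 and 687 CPM in cells without. The ranges did not overlap, and it was lower in 6 of 6 samples. Ucn3 had 278, 325 and 868 CPM against 428, 564 and 688 CPM. It was lower in 5 samples and higher in PPTx replicate 4, whose value of 868 CPM rests on 16 UMIs in 5 cells, 8 of them in a single cell. Prss53 had 218, 245 and 339 CPM against 236, 343 and 437 CPM and was lower in 4 of 6 samples, with overlap.

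For Wnt4 the lowest, median and highest values were 74.1, 161 and 165 CPM with and 129, 162 and 237 CPM without such UMIs, lower in 4 of 6 samples. Slc2a2 had 169, 210 and 238 CPM against 161, 202 and 277 CPM and was lower in 3 of 6. No Esrrg UMI was counted in the 45 cells, where a limit of 3 counts corresponds to 8.85 CPM, above the 4.48 CPM of all β-cells, so a difference was not detectable at this depth.

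In the fit over 2590 genes with the sample as a block, 2 of 5 markers were called, both lower, where 5.87% of all genes tested were called in either direction and 1.93% of all genes tested were called lower. The log2 difference of Ppp1r1a was -0.96 (SE 0.19, adjusted p = 2.27e-05, exact sign-flip p = 0.0312, two-sided, the smallest that 6 samples allow) and DESeq2 gave -0.95 (adjusted p = 0.000631). Lower values in 6 of 6 samples were found for 3.24% of all genes. Ucn3 differed by -0.71 (SE 0.18, adjusted p = 0.00372, DESeq2 adjusted p = 0.0263), and the exact test gave p = 0.156. Prss53 was at -0.55 (SE 0.21, adjusted p = 0.0951), Wnt4 at -0.47 (SE 0.26, adjusted p = 0.371) and Slc2a2 at -0.20 (SE 0.23, adjusted p = 0.745, 95% interval -0.65 to 0.24). The median of the 5 markers was -0.55, against -0.08 over all genes tested.

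Depth and cell make-up moved with this comparison. Pooled over all 8 samples rather than the 6 of the fit, cells with Top2a or Cdk1 UMIs had a median of 7357 UMIs against 6090. Their median insulin share was 55.3% against 59.9%. With every cell thinned to 2000 UMIs before the search, which leaves fewer cells with such UMIs and 697 genes to test, neither marker was called (Ppp1r1a -0.62, adjusted p = 0.596, and Ucn3 -0.66, adjusted p = 0.547). With the search at full depth and thinning afterwards Ppp1r1a was at -0.87 (adjusted p = 0.0983) and Ucn3 at -0.69 (adjusted p = 0.228). In the PPTx samples alone Ppp1r1a stayed called (-0.75, adjusted p = 0.0115) and Ucn3 did not (-0.51, adjusted p = 0.173). Leaving out PPTx replicate 3 brought Prss53 past the threshold (-0.78, adjusted p = 0.0341), and requiring 2 UMIs of Top2a and Cdk1 did so for Wnt4 (-1.32, adjusted p = 0.0446).

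In the same fit the list of mature β-cell function had 0 higher and 2 lower of 18 tested, G6pc2 at -0.82 (adjusted p = 7.00e-06) and Ero1lb, an oxidase of the endoplasmic reticulum that folds proinsulin, at -0.69 (adjusted p = 0.000934), with a median of -0.30. Of all genes tested 1.93% were called lower and 5.87% in either direction. Of the immature or non-β list 2 genes were tested and both were lower, Pyy at -3.31 (adjusted p = 9.86e-32) and Cd81 at -2.77 (adjusted p = 0.000816). The PP-cell markers as a whole summed to between 65.4 and 609 CPM in cells with Top2a or Cdk1 UMIs, over the 6 samples of the fit. In cells without, over all 8 samples, they summed to between 252 and 2953 CPM, and their part in these differences was not tested. Of the receptors, relatives and neighbours 6 were tested and none was called (Benjamini-Hochberg adjusted, edgeR), with a median of 0.08.

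The third question was whether the markers differed in β-cells 2 days after PPTx. Slc2a2 in CPM was lower in each PPTx sample than in any control sample, Ppp1r1a and Wnt4 had lower means with overlap, and Ucn3 and Prss53 overlapped between the groups. None of them passed the threshold adjusted over all genes.

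**Figure D4:**
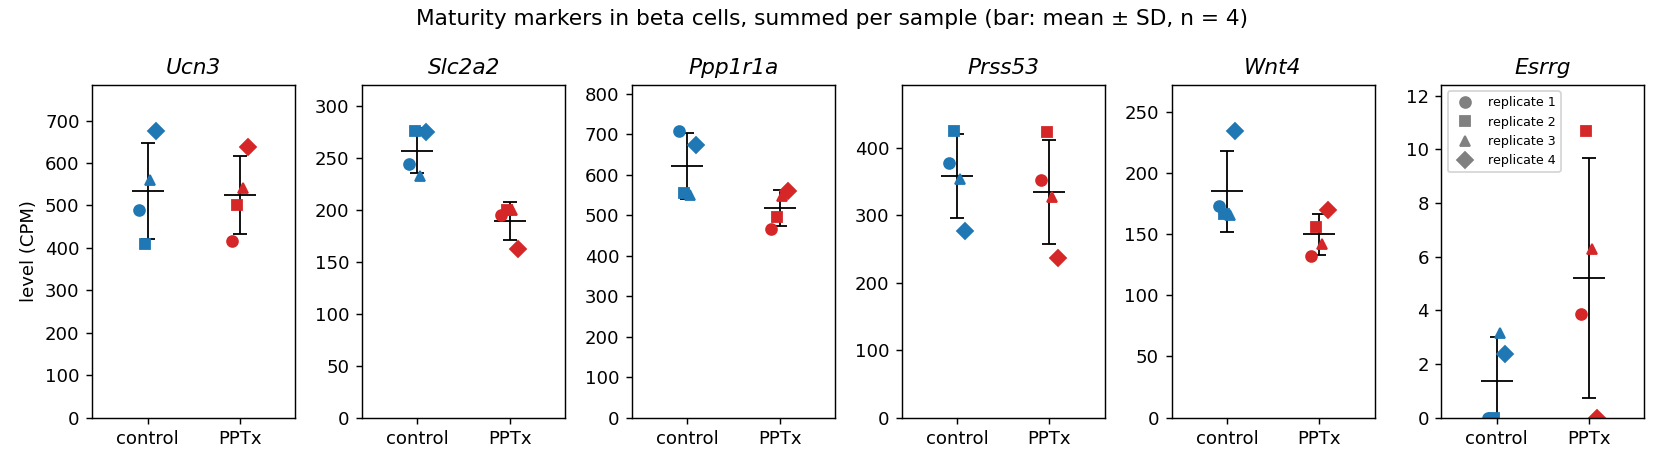
Level of each maturity marker in β-cells (CPM), 1 point per sample with the shape giving the replicate, blue for control and red for PPTx, and bars for the mean ± SD (n = 4). The PPTx samples of Slc2a2 lie between 162 and 201 and the controls between 233 and 276; the other markers overlap between the groups.

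In control replicates 1 to 4, Slc2a2 was 245, 276, 233 and 276 CPM, and in PPTx replicates 1 to 4 it was 195, 200, 201 and 162 CPM. The groups did not overlap, with means of 257 ± 21.9 and 190 ± 18.2 CPM (SD, n = 4 each, exact permutation p = 0.0286, two-sided). Such separation towards lower values was found for 1.29% of the 5830 genes tested. Per 1000 insulin UMIs the groups overlapped, since control replicates 1 to 4 had 0.418, 0.450, 0.370 and 0.453 Slc2a2 UMIs, whereas the PPTx replicates had 0.327, 0.386, 0.350 and 0.267. The fitted log2 difference was -0.54 (SE 0.15, unadjusted p = 0.00157), the adjusted p was 0.155 with edgeR and 0.249 with DESeq2, and over 18 other settings the difference lay between -0.63 and -0.44 with adjusted p between 0.104 and 0.398.

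Ppp1r1a was 708, 555, 551 and 674 CPM in controls and 467, 496, 547 and 560 CPM in PPTx samples. The highest PPTx values reached the lowest controls, and the means were 622 ± 81.0 and 518 ± 43.9 CPM (SD, n = 4 each, exact p = 0.114). The log2 difference was -0.34 (SE 0.15, unadjusted p = 0.0301, adjusted p = 0.475). Wnt4 was 173, 166, 165 and 234 CPM in controls and 132, 155, 142 and 170 CPM in PPTx samples. PPTx replicate 4 overlapped with the controls, and the means were 185 ± 33.2 and 150 ± 16.6 CPM (SD, n = 4 each, exact p = 0.0857). The log2 difference was -0.42 (SE 0.17, unadjusted p = 0.0232, adjusted p = 0.436).

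Ucn3 was 489, 410, 561 and 676 CPM in controls and 416, 502, 541 and 639 CPM in PPTx samples. Both groups covered nearly the same range, with means of 534 ± 113 and 524 ± 92.3 CPM (SD, n = 4 each, exact p = 0.886) and a log2 difference of -0.13 (95% interval -0.48 to 0.22, adjusted p = 0.892). Prss53 was 377, 425, 355 and 277 CPM in controls and 353, 424, 328 and 237 CPM in PPTx samples. Here too the groups overlapped, with means of 359 ± 62.0 and 335 ± 77.0 CPM (SD, n = 4 each, exact p = 0.629) and a log2 difference of -0.19 (95% interval -0.51 to 0.13, adjusted p = 0.771). Esrrg was 0, 0, 3.15 and 2.36 CPM in controls and 3.88, 10.7, 6.30 and 0 CPM in PPTx samples (exact p = 0.171), from 6 and 22 UMIs.

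Across the 5830 genes tested, 0 of 5 markers were called between PPTx and control, where 0.326% of all genes were (19 genes, 12 higher and 7 lower). DESeq2 called 15 genes and no marker. At an unadjusted p under 0.05, 3 of 5 markers were lower (Slc2a2, Ppp1r1a and Wnt4), where 9.55% of all genes passed that limit in either direction. This count became 1, Slc2a2 alone, without TMM and without control replicate 4, PPTx replicate 1 or PPTx replicate 2, and 2 without control replicate 1 or PPTx replicate 3, with no filter on low counts and when thinned. The Wnt4 difference became -0.26 without control replicate 4. The median of the 5 markers was -0.34, against -0.01 over all genes tested.

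Several other quantities differed between the same samples. The PP-cell markers summed to between 260 and 814 CPM in control and between 1334 and 2739 CPM in PPTx β-cells, the α-cell markers to between 1514 and 1901 and between 1892 and 2323 CPM, and the acinar markers to between 2.16 and 15.3 and between 7.35 and 118 CPM. Insulin took a median of 62.1% of the UMIs of control and 57.5% of PPTx β-cells, and the median depth was 7249 and 5719 UMIs. Endothelial and immune markers were at or near 0 in both groups. The part of these quantities in the marker values was not tested. The mature list had 0 higher and 1 lower of 19 tested, Trpm5 at -1.03 (adjusted p = 0.0110, edgeR), the immature list 1 higher of 4 tested, Pyy at 1.58 (adjusted p = 0.0276, edgeR), and the receptors, relatives and neighbours 0 of 8. The share of all genes called in either direction was 0.326%.

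The share of β-cells with a UMI, at 2000 UMIs a cell, was compared in the same way, and the plot of these shares shows each sample. Slc2a2 was found in 38.9%, 47.4%, 38.5% and 37.9% of control and 30.9%, 28.1%, 33.7% and 26.3% of PPTx β-cells. Ppp1r1a was found in 72.2%, 68.4%, 68.0% and 70.7% of control and 51.5%, 56.2%, 61.4% and 61.7% of PPTx β-cells. For both genes the groups did not overlap, with means of 40.7% ± 4.48 and 29.8% ± 3.22 for Slc2a2 and of 69.8% ± 1.97 and 57.7% ± 4.80 for Ppp1r1a (SD, n = 4 each, exact p = 0.0286 for each, of 6 markers compared). Lower shares without overlap were found for 1.42% of the 5830 genes, and for 2.44% of the 532 genes with a mean share of at least 20%.

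**Figure D5:**
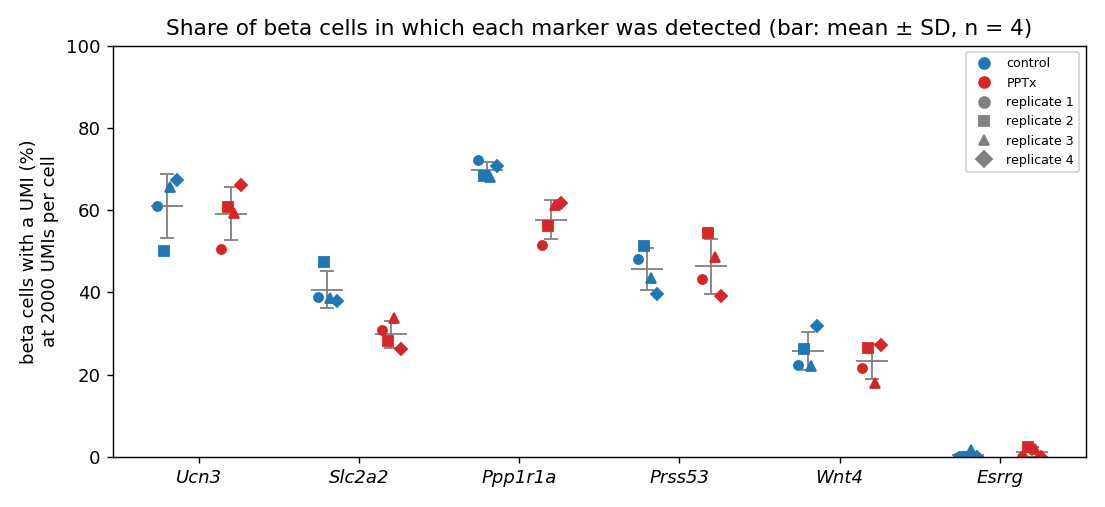
Share of β-cells (%) with at least 1 UMI of each marker after thinning every cell to 2000 UMIs, 1 point per sample (blue control, red PPTx, shape for the replicate) with mean ± SD (n = 4). PPTx samples lie below every control for Slc2a2 and Ppp1r1a and overlap with the controls for the other markers.

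The remaining shares overlapped between the groups. Means were 61.0% ± 7.76 and 59.2% ± 6.49 for Ucn3 (exact p = 0.686), 45.6% ± 5.14 and 46.3% ± 6.64 for Prss53 (exact p = 0.914), 25.6% ± 4.60 and 23.2% ± 4.33 for Wnt4 (exact p = 0.486), and 0.410% ± 0.820 and 1.05% ± 1.22 for Esrrg (exact p = 0.429). Thinning also exchanged the places of Slc2a2 and Ppp1r1a in the exact test of the summed levels, with p = 0.0571 for Slc2a2 and 0.0286 for Ppp1r1a on the thinned counts.

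Last, it was tested whether the step to β-cells with Top2a or Cdk1 UMIs differed between PPTx and control samples. With 2 control and 4 PPTx samples, 0 of 5 markers were called, where 0.0386% of 2590 genes were (1 gene, Mt1, a metallothionein, at -1.55, adjusted p = 0.0199, edgeR, named after its values were seen). The step was less negative in PPTx samples by 0.92 for Ucn3 (95% interval 0.09 to 1.75, unadjusted p = 0.0300, adjusted p = 0.919) and by 0.98 for Ppp1r1a (0.10 to 1.87, unadjusted p = 0.0300, adjusted p = 0.919) on the log2 scale. The other 3 markers had intervals that include 0, of -0.44 to 1.56 for Slc2a2, -0.62 to 1.25 for Prss53 and -0.45 to 2.01 for Wnt4. The control side of this comparison rests on 8 cells, and 5.25% of all genes had an unadjusted p under 0.05.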

How the data were processed

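Per the study's methods, alignment to mm10 and UMI counting were done by the authors in Cell Ranger, and the submitters' processing notes also name bcl2fastq. The deposited tables, 1 for each sample, list raw counts by cell and gene symbol. Those methods also name a filtering step in Cell Ranger, whose criteria are not given in the sources used here. The study's own limits of 100 to 3000 genes and 100 to 20000 UMIs a cell were applied, which left out 8, and 1 barcode occurred in 2 samples. Doublets were not called, and cells with 2 abundant hormones were left out. The total per sample over kept cells ranged from 227439 to 1580152 UMIs. Thinning drew 2000 UMIs from each cell at random.

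Counts were summed per sample and class (at least 5 cells for types, 3 for cells with Top2a or Cdk1 UMIs) and tested with edgeR 4.0.16 in R 4.3.3 (filterByExpr with a minimum count of 10, TMM, quasi-likelihood, Benjamini-Hochberg over all genes tested, threshold 0.05), with the sample as a block within samples and no block between PPTx and control. DESeq2 1.42.0 was an alternative. Exact permutation and sign-flip tests, all two-sided, used scipy 1.17.1 in Python 3.11.15. The labels do not say that samples came from separate mice, so p-values measure the spread between these samples. δ-cells were too few for the planned test and are described by counts with 95% Poisson intervals. The tests were run on simulated counts first.

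The 6 markers and the lists of related genes were chosen with earlier results of these data known. Text names the 6 markers in every comparison, the 3 genes most like each, and up to 5 called genes each way from each list, and results for some genes of these lists are not reported here. Alternatives varied the normalization, the filter, the hormone limits, the cells kept, the thinning, the samples and the block. Promoter windows were matched by symbol for 5 of the 6 markers.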

Additional observations from a re-analysis of the deposited data

Results flagged for a closer look

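In 41 groups of 4 to 7 samples, 8 had a sample that stood apart from the rest of its group by Dixon's criterion. Chance alone gives this in about 1 of 20 groups when the values are independent and normally spread. Some groups here share cells, and others were at 0 but for 1 sample, which fixes the flag. The count of 8 can therefore not be set against that rate. Ucn3 in PP-cells was 31.7 CPM in PPTx replicate 2, where the next sample had 11.4 CPM. Ucn3 in β-cells with Top2a or Cdk1 UMIs was 868 CPM in PPTx replicate 4, where the next sample had 403 CPM. Slc2a2 in β-cells of PPTx samples was lowest in replicate 4, at 162 CPM against 195 CPM in the next sample. Wnt4 in control β-cells was highest in replicate 4, at 234 CPM against 173 CPM in the next, and at 237 CPM against 175 CPM when the cells with Top2a or Cdk1 UMIs were left out. The other 3 stood apart from groups that were otherwise at 0. Prss53 and Esrrg were each 4.83 CPM in α-cells of control replicate 3, on 1 UMI each, and Esrrg was 14.9 CPM in PP-cells of PPTx replicate 1, on 2 UMIs.

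Marker UMIs were also counted in cells outside the comparisons, in part above the number that their insulin UMIs would bring. The 42 cells with 2 abundant hormones that did not include insulin held 13 UMIs of Ucn3 in 5 cells (2.59 expected), 6 of Slc2a2 in 5 cells (1.02 expected), 12 of Ppp1r1a in 6 cells (2.57 expected) and 33 of Wnt4 in 20 cells (0.801 expected), and 0 of Prss53 (1.81 expected). The 16 cells with no abundant hormone held 5 UMIs of Slc2a2 in 3 cells (0.415 expected) and 5 of Ppp1r1a in 2 cells (1.10 expected), and 1 each of Ucn3 (1.14 expected), Prss53 (0.748 expected) and Wnt4 (0.342 expected). The 20 cells in which insulin was 1 of 2 abundant hormones held fewer than expected of Ucn3 (29 against 43.5), Slc2a2 (14 against 17.7) and Prss53 (25 against 29.5), 47 of Ppp1r1a against 44.6, and 32 of Wnt4 against 13.7. No cause was tested.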

How the results depend on the processing

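Of the 5 tested markers, the 4 called between β-cells and α- or PP-cells were called under every alternative run, with differences of 3.49 to 9.99 against α-cells and 3.02 to 7.78 against PP-cells, and no marker was called between PPTx and control under any. The count of markers lower in β-cells with Top2a or Cdk1 UMIs was 2, and became 4 with no filter on low counts, 1 in PPTx samples only, and 0 when cells were thinned before or after the search. It was 2 to 3 when 1 replicate was left out. With no filter the median over all genes tested was -0.66, against -0.08 in the main fit, so the markers moved down together with the other genes. The fits in PPTx samples only, with thinning after the search and with libraries of at least 2 cells were chosen after seeing the data. Signs reversed for Slc2a2 with against without such UMIs when thinned (0.14), for Prss53 between PPTx and control when thinned (0.020 in the fit, 0.12 in the exact test) and for Ucn3 without control replicate 4 (0.019, in a range of -0.29 to 0.019 with 1 replicate left out), none of which was called in either direction. With Iapp as the reference, the mean log2 ratio in PP-cells (0.5 UMI added) reversed for Ucn3 (-1.10) and Prss53 (-0.055), and 2 rather than 5 ratios had an exact p under 0.05, against 8 with the stricter hormone limits. The added 0.5 UMI lifts samples with 0 UMIs, so nothing is read from these counts.

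Counts over all genes tested moved more. Against α-cells, 760 genes were called, 370 when thinned and 459 to 785 with 1 replicate left out (459 without control replicate 3). Against PP-cells, 917 were called, 1448 with no filter, 346 when thinned and 594 to 1003 with 1 replicate left out (594 without PPTx replicate 2). For cells with Top2a or Cdk1 UMIs, 152 were called, 100 by DESeq2, 558 with no filter, 12 and 21 when thinned before and after the search, 74 with every sample of at least 1 such cell and 120 to 163 with 1 replicate left out. Between PPTx and control, 19 were called, 32 without TMM, 79 with no filter, and 7 to 27 with 1 replicate left out (8 without control replicate 1 or 2, 7 without PPTx replicate 1). The 1 gene called for the difference of the step became 0 with every sample of at least 1 such cell. Thinning tests fewer genes; the cause of the other shifts was not tested.

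Replicate numbers were checked for pairing over 1573 genes of at least 50 CPM. Same-numbered control and PPTx samples had correlations of 0.03 to 0.33 (3 of 4 above 0.1) against -0.22 to 0.15 for other numbers, and 6 of 8 samples correlated best with their own number. Because 1 of the 4 correlations was only 0.03 and the labels give the numbers no shared litter, batch or day, the numbers were not taken to pair the samples. A replicate block raised the calls between PPTx and control from 19 to 51 (35 higher and 16 lower), with no marker among them and an adjusted p of 0.104 for Slc2a2. With no replicate block, the fits within samples called the same number of markers (4, 4 and 2).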
